A study of Homo sapiens with 5 samples.

Results

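Cells that run short of oxygen stabilize the hypoxia-inducible factors (HIF), transcription factors that bind short DNA motifs next to their target genes and raise transcription. The best known targets serve glycolysis, acid export and the growth of blood vessels. A further group of genes is recorded again and again in hypoxia signatures while little is known of what the proteins do. The genes described here are 8 such genes, chosen by symbol from 26475 rows of gene-level counts: ANKRD37, PPFIA4, SPAG4, TMEM45A, ANKZF1, FAM162A, STC1 and STC2. They were picked because they had been seen to be higher at 1% O2 in these libraries, so their differences between 1% and 20% O2 are given as a description with no test.

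The values come from RNA sequencing of MDA-MB-231, a much used human cell line from a triple-negative breast tumour whose cells look mesenchymal. Every library is of that line, with no genetic change or drug named in the labels. The conditions were 1 day at 1% O2 or at 20% O2 (acute hypoxia and its control), 10 days at 1% O2 or at 20% O2 (chronic hypoxia and its control), and reoxygenated cells, which spent 10 days at 1% O2 and then 10 days at 20% O2. Each of the 5 conditions has 1 library, so no value has a replicate check, and what is learned from 1 line kept in dishes cannot be read as a property of tumours. Totals ran from 7719807 estimated counts in reoxygenated cells to 12544941 in the 20% O2 library of day 10. VIM, CD44, AXL and CAV1, markers of this line, had 276 CPM or more in every library (counts scaled to a common depth and RNA composition), while ESR1 had at most 2 counts. SPARC, listed as present, had only 0.963 to 1.89 CPM. EPCAM and GATA3, both listed as near absent, had 15.1 to 29 CPM and 6.23 to 9.71 CPM. The summed level of 5 markers of blood, endothelium, liver and fibroblasts was 21.7 CPM after 10 days at 1% O2 and 7.41 to 13.1 CPM in the other libraries, with ALB at 0 in all but 1 of them; their part in the results was not tested. In bulk RNA a change in the number of cells that express a gene and a change in RNA per cell cannot be told apart.

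A gene is called higher or lower below when its log2 difference between 2 libraries is at least 1 in size, that is 2-fold. Brackets hold exact 95% intervals for the ratio of a pair of counts; they reflect sampling of reads and say nothing of how much cultures vary. All 8 genes passed the filter of 1 CPM in at least 1 library, which left 13940 genes, and all 8 had at least 1 CPM in every library. Their lowest value was 11 counts and their highest 8174.

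HIF binds DNA at a core of ACGTG or GCGTG. RefSeq promoter windows of GRCh38.p14 were at hand for 5 of the 8 genes, and the 250 bases before the annotated start were searched for both words on both strands. The palindrome CACGTG, which is also the E-box read by other factors such as MYC, holds ACGTG on each strand and was counted as 1 place, as were matches that share a base. ANKRD37, PPFIA4, FAM162A and STC2 held at least 2 places each and TMEM45A held none. Among all 27305 promoters on hand, 43.1% held at least 1 place and 16.3% at least 2; among 10361 promoters of the genes compared here the shares were 56.9% and 24.7%. The stretches with the matches are printed to show how the words are placed in each gene. They read 5′ to 3′ along the gene's strand, with the matched letters in capitals. For ANKRD37 the stretch is chr4:185396676-185396705 on the plus strand, at positions -165 to -136 from the start; for PPFIA4 it is chr1:203026352-203026431, plus strand, -139 to -60; for FAM162A it is chr3:122384070-122384170, plus strand, -112 to -12; and for STC2 it is chr5:173328626-173328655, minus strand, -241 to -212.
ANKRD37: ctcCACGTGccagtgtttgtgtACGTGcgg
PPFIA4: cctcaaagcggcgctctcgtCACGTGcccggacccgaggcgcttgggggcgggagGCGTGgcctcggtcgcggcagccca
FAM162A: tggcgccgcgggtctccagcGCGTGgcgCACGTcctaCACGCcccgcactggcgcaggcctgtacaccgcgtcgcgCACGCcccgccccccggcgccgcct
STC2: catacaCACGCACGCaaacGCGTGgccgcc

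A match is a description of letters, and no binding was measured here. ANKRD37 and PPFIA4 each hold the palindrome followed by a further match, whereas FAM162A has 4 separate places and no palindrome.

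After 1 day at 1% O2, 6 of the 8 genes were higher than at 20% O2, and none was lower, where 2.12% and 0.839% of all genes compared were. After 10 days 6 were higher and none lower, against 14.4% and 7.04% of all genes. FAM162A was not among them at either time, ANKZF1 missed the 2-fold size at day 10, and STC2 missed it at day 1. The median of the 8 log2 differences was 1.33 at day 1 and 2.16 at day 10, and that of all genes 0.00 and 0.02. Because the genes were chosen for these differences, nothing is read from the counts. Intervals lay above 0 for 7 genes at each time, where 15.9% of all genes at day 1 and 33.9% at day 10 had such an interval. With library totals in place of composition-scaled totals, the median day 10 difference of all genes was 0.14. The share of higher genes among those past the size rule at day 10 was 67.2%, and 77.7% with library totals.

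**Figure D1:**
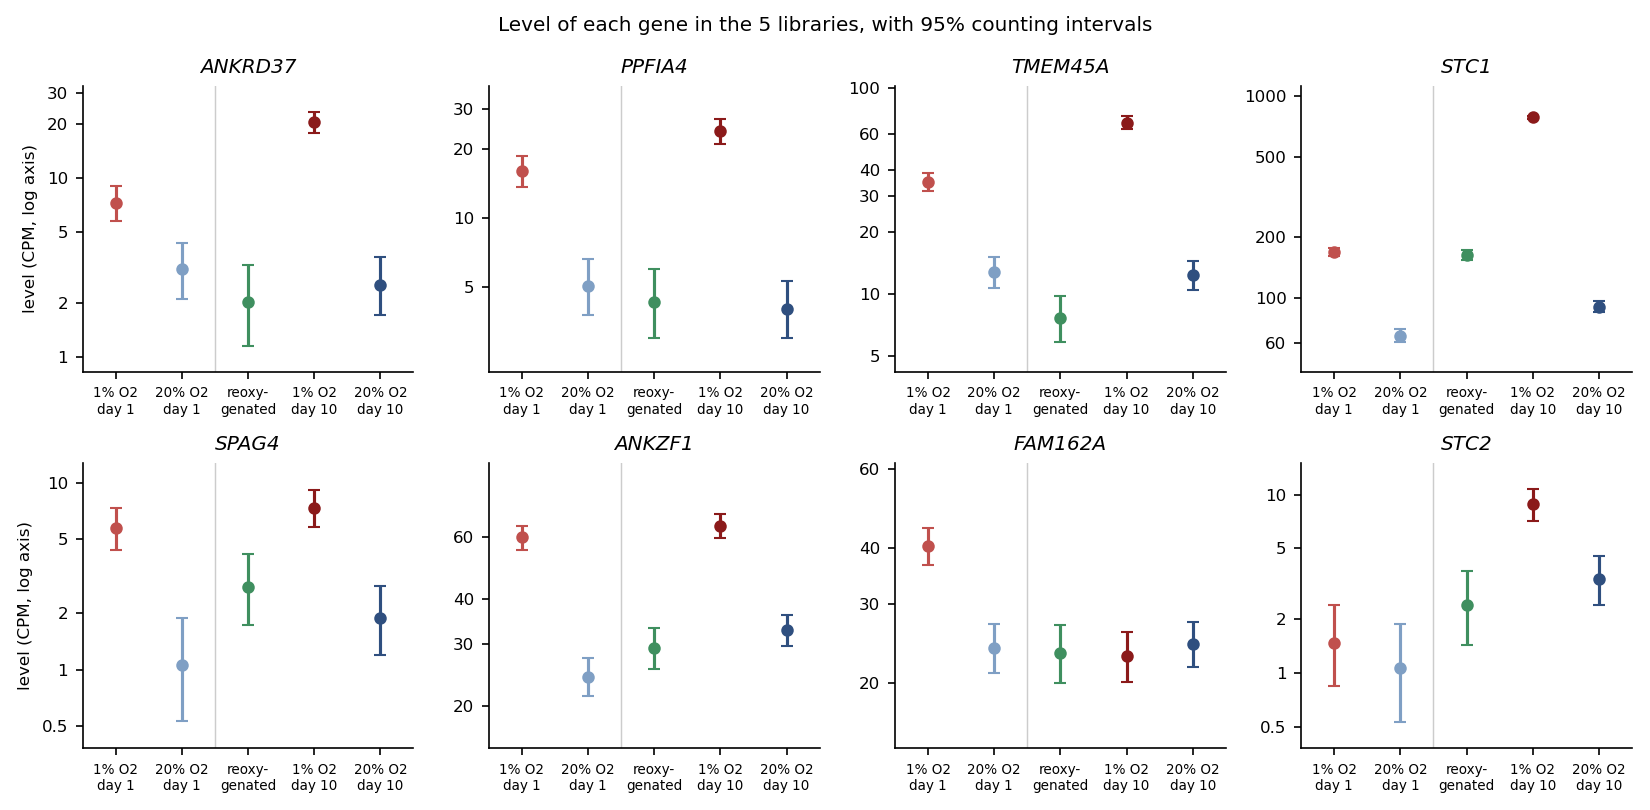
Level of each of the 8 genes in CPM (log axis) in every library, with 95% Poisson intervals of the count; the grey line divides the libraries of day 1 from the others, and each panel has its own axis. ANKRD37, PPFIA4, TMEM45A and STC1 have their highest point after 10 days at 1% O2. For SPAG4 and ANKZF1 the intervals of both 1% O2 libraries overlap, and FAM162A is highest after 1 day at 1% O2 (40.3 CPM).

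ANKRD37, PPFIA4, TMEM45A and STC1 were higher at 1% O2 at both times. Their 1% O2 level of day 10 exceeded that of day 1 beyond counting error, and for ANKRD37 and STC1 by more than 2-fold. ANKRD37 encodes a small protein built of ankyrin repeats, a fold that binds other proteins, and lies on chromosome 4 from 185396841 to 185400723 (plus strand). It stood at 7.23 CPM (78 counts) after 1 day at 1% O2, against 3.08 CPM (32 counts) at 20% O2. After 10 days it stood at 20.5 CPM (214 counts) at 1% O2, against 2.53 CPM (31 counts) at 20% O2. Both 1% O2 libraries were above all the others, and the 3 libraries from cells at 20% O2 overlapped in their intervals. The log2 difference was 1.18 (0.62 to 1.87) at day 1 and 2.93 (2.47 to 3.61), or 7.61-fold, at day 10. That placed ANKRD37 at rank 130 of 13940 genes after 10 days.

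PPFIA4 encodes liprin-α4, a scaffold protein of a family known for organizing synapses, and lies on chromosome 1 from 203026491 to 203078736 (plus strand). It had 16 CPM (173 counts) after 1 day at 1% O2, against 5.01 CPM (52 counts) at 20% O2. At day 10 it had 23.9 CPM (249 counts) at 1% O2, against 4 CPM (49 counts) at 20% O2. The log2 differences were 1.64 (1.22 to 2.15) and 2.52 (2.13 to 3.05), and within 1% O2 the day 10 library exceeded the day 1 library by 0.57 (0.29 to 0.86).

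TMEM45A, a transmembrane protein gene known from skin keratinocytes, lies on chromosome 3 from 100492619 to 100577444 (plus strand). It was at 35 CPM (378 counts) after 1 day at 1% O2 and at 12.8 CPM (133 counts) at 20% O2. At day 10 the levels were 68.2 CPM (712 counts) at 1% O2 and 12.4 CPM (152 counts) at 20% O2. Both 20% O2 libraries had nearly the same level, and at 1% O2 the level of day 10 was 1.94-fold that of day 1. The log2 difference between oxygen levels was 1.44 (1.16 to 1.75) at day 1 and 2.44 (2.21 to 2.72) at day 10. Of the 50-base words in the TMEM45A transcripts of GENCODE 29, 17.3% also occur in transcripts of other genes, so part of its reads may be shared out by estimation.

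STC1 encodes stanniocalcin-1, a secreted glycoprotein first known as a calcium-lowering hormone of fish, and lies on chromosome 8 from 23841929 to 23854806 (minus strand). It reached 169 CPM (1820 counts) after 1 day at 1% O2, against 65.3 CPM (678 counts) at 20% O2. By day 10 it had reached 783 CPM (8174 counts) at 1% O2, against 90.8 CPM (1113 counts) at 20% O2. No other gene of the 8 had so many counts, and its intervals are the narrowest. The log2 difference was 1.37 (1.24 to 1.50) at day 1 and 3.11 (3.02 to 3.20), or 8.61-fold, at day 10, at rank 104 of 13940 genes. STC1 was also 1.39-fold higher in the 20% O2 library of day 10 than in that of day 1, a log2 difference of 0.47 (0.34 to 0.62).

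SPAG4 and ANKZF1 are described apart from these 4 because no difference between days in their 1% O2 levels was detectable at this depth. SPAG4, also called SUN4, belongs to the SUN-domain proteins of the nuclear envelope and is known from sperm cells; it lies on chromosome 20 from 35615829 to 35621094 (plus strand). Its levels were 5.74 CPM (62 counts) at 1% O2 and 1.06 CPM (11 counts) at 20% O2 after 1 day. After 10 days they were 7.38 CPM (77 counts) at 1% O2 and 1.88 CPM (23 counts) at 20% O2. With so few counts the intervals are wide: the log2 difference was 2.25 (1.50 to 3.51) at day 1, rank 22 of 13940 genes, and 1.87 (1.29 to 2.72) at day 10. Both 1% O2 libraries differed by 0.35 (-0.14 to 0.87), which counting error alone spans. That interval also holds the 0.57 of PPFIA4, so the counts do not set SPAG4 apart from PPFIA4 in this.

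ANKZF1 is the human counterpart of yeast Vms1, a factor that frees unfinished chains from stalled ribosomes, and lies on chromosome 2 from 219229806 to 219236679 (plus strand). It stood at 59.8 CPM (646 counts) after 1 day at 1% O2, against 24.2 CPM (251 counts) at 20% O2. After 10 days it stood at 64.4 CPM (672 counts) at 1% O2, against 32.7 CPM (401 counts) at 20% O2. The 1% O2 level was the same at both times within counting error, and the level at 20% O2 was higher at day 10 by 0.43 (0.21 to 0.67). The difference between oxygen levels was therefore 1.30 (1.10 to 1.52) at day 1 and 0.97 (0.80 to 1.16) at day 10. At day 10 it lay just under the 2-fold size, and just over it, at 1.10, with library totals.

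FAM162A goes against its label after 10 days. The gene, also known as HGTD-P, encodes a mitochondrial protein described as a mediator of cell death in hypoxia, and lies on chromosome 3 from 122384182 to 122412334 (plus strand). After 1 day it had 40.3 CPM (435 counts) at 1% O2, against 23.9 CPM (248 counts) at 20% O2. At day 10 there were 22.9 CPM (239 counts) at 1% O2, against 24.4 CPM (299 counts) at 20% O2. Only the library of day 1 at 1% O2 stood apart, and the other 4 lay between 22.9 and 24.4 CPM. The log2 difference was 0.75 (0.53 to 0.99), or 1.68-fold, at day 1 and -0.09 (-0.34 to 0.16) at day 10, with a sign that turned to 0.04 with library totals. Within 1% O2, day 10 was lower than day 1 by a log2 difference of -0.81 (-1.05 to -0.58).

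STC2, on chromosome 5 from 173314723 to 173328414 (minus strand), encodes stanniocalcin-2, a secreted inhibitor of the pappalysin proteases, and is known to respond to the stress factor ATF4. It had 1.48 CPM (16 counts) after 1 day at 1% O2, against 1.06 CPM (11 counts) at 20% O2. After 10 days it had 8.82 CPM (92 counts) at 1% O2, against 3.34 CPM (41 counts) at 20% O2. A difference at day 1 was not detectable at this depth, at 0.42 (-0.71 to 1.74), and at day 10 it was 1.35 (0.85 to 1.97). Time in culture moved with STC2 too: at 20% O2 the library of day 10 exceeded that of day 1 by 1.50 (0.67 to 2.77), where 3.06% of all genes were higher and 1.31% lower. At 1% O2 it did so by 2.43 (1.80 to 3.44), where 14.2% were higher and 6.56% lower. No other gene of the 8 passed the 2-fold size with time at 20% O2. At 1% O2 STC1 and ANKRD37 passed it with time as well, at 2.21 (2.14 to 2.29) and 1.48 (1.12 to 1.90).

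**Figure D2:**
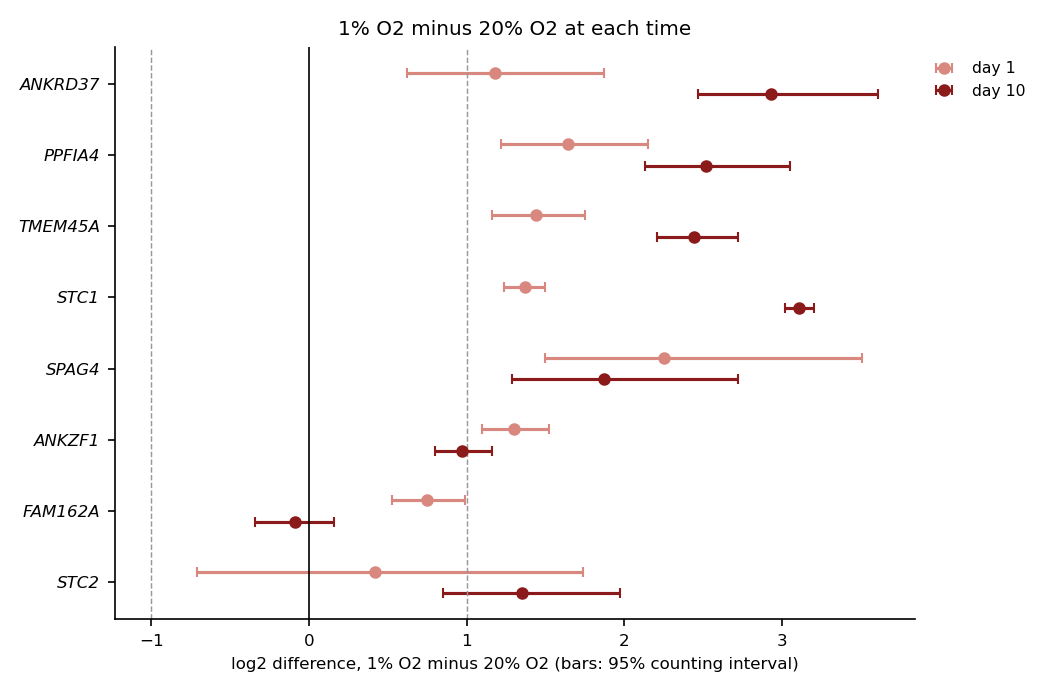
Log2 difference of 1% O2 minus 20% O2 for each gene at day 1 and at day 10; bars are exact 95% counting intervals and dashed lines mark the 2-fold size. The day 10 point lies to the right of the day 1 point for ANKRD37, PPFIA4, TMEM45A, STC1 and STC2, and to its left for SPAG4, ANKZF1 and FAM162A.

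The change of each gene's oxygen difference with time was set out directly, as the day 10 difference minus the day 1 difference. It was 1.75 (0.94 to 2.55) for ANKRD37, 1.74 (1.58 to 1.90) for STC1, 1.00 (0.62 to 1.39) for TMEM45A and 0.88 (0.25 to 1.51) for PPFIA4. It was negative for FAM162A at -0.84 (-1.17 to -0.51) and for ANKZF1 at -0.33 (-0.60 to -0.05). For STC2, at 0.93 (-0.30 to 2.16), and for SPAG4, at -0.37 (-1.52 to 0.77), the counts do not settle the sign. These intervals are normal approximations on log counts. No share of all genes is given here for this change, so how common such values are cannot be read from it. With library totals PPFIA4 and STC2 passed 1 as well, at 1.01 and 1.05.

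Reoxygenated cells had lower levels of every gene of the 8 except FAM162A than cells after 10 days at 1% O2, with 7 of the 8 genes past the 2-fold size and none higher, where 11.2% of all genes were lower and 5.6% higher. That library was compared with 1% O2 and with 20% O2 at day 10. Both of those also enter the day 10 difference above, so the 3 values of a gene share libraries and are given side by side only. Reoxygenated cells also spent longer in culture than either. Against 20% O2, past low oxygen and time in culture therefore cannot be told apart. Among the 8 genes ANKRD37 had the largest difference from 1% O2. Reoxygenated cells had 2.01 CPM (16 counts) of it, a log2 difference of -3.23 (-4.18 to -2.62) from 1% O2 and of -0.30 (-1.30 to 0.58) from 20% O2. PPFIA4, at 4.27 CPM (34 counts), differed by -2.43 (-3.04 to -1.96) from 1% O2 and by 0.09 (-0.58 to 0.76) from 20% O2. For both, a difference from cells never exposed to low oxygen was not detectable at this depth.

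STC1 and TMEM45A departed from the 20% O2 library of day 10 in opposite directions. STC1 had 164 CPM (1302 counts) in reoxygenated cells, which was lower than after 10 days at 1% O2 by -2.26 (-2.34 to -2.17) and 1.8-fold higher than after 10 days at 20% O2, a log2 difference of 0.85 (0.73 to 0.97). Its reoxygenated level was close to that after 1 day at 1% O2, from which it differed by less than counting error. TMEM45A had 7.67 CPM (61 counts) in reoxygenated cells, its lowest level of all 5 libraries. That was -3.12 (-3.56 to -2.77) against 1% O2 and -0.68 (-1.15 to -0.26), or 1.6-fold lower, against 20% O2. Neither reached the 2-fold size against 20% O2, which 3.4% of all genes passed upward and 1.41% downward, and no other gene of the 8 had an interval that left out 0 there.

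SPAG4 at 2.77 CPM (22 counts) differed by -1.36 (-2.17 to -0.72) from 1% O2 and by 0.52 (-0.35 to 1.47) from 20% O2. ANKZF1 at 29.2 CPM (232 counts) differed by -1.14 (-1.36 to -0.93) and -0.16 (-0.40 to 0.07). STC2 at 2.39 CPM (19 counts) differed by -1.80 (-2.68 to -1.16) and -0.45 (-1.35 to 0.33). For these genes too, a difference from 20% O2 was not detectable at this depth. FAM162A, with 23.3 CPM (185 counts), differed by 0.02 (-0.26 to 0.31) from 1% O2 and by -0.07 (-0.34 to 0.20) from 20% O2.

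**Figure D3:**
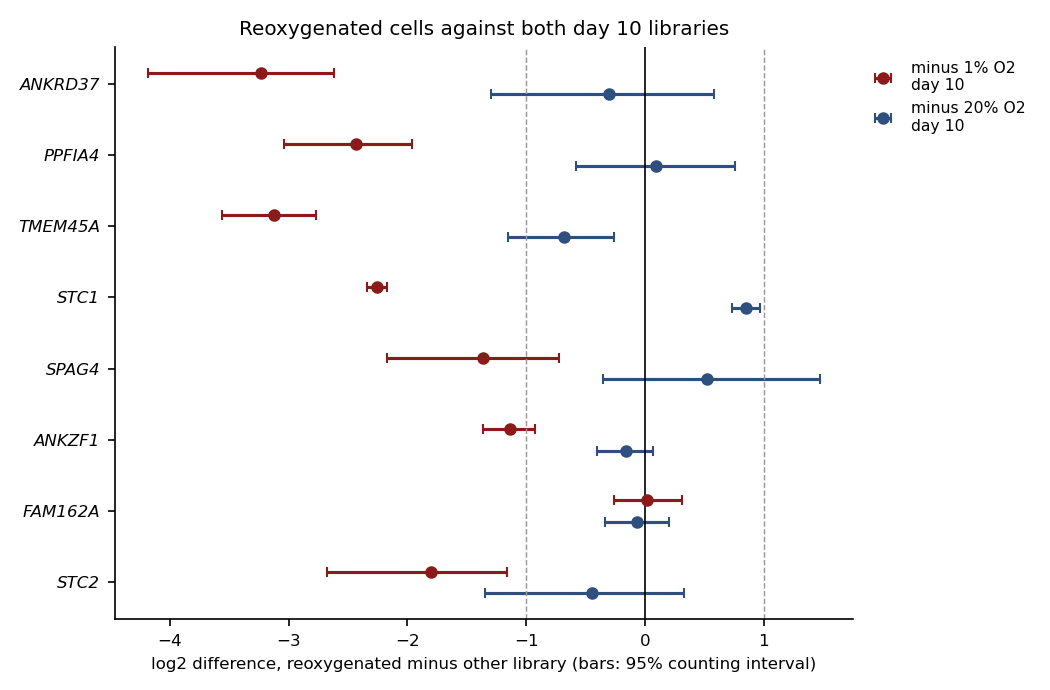
Log2 difference of reoxygenated cells minus the 1% O2 library of day 10 (dark red) and minus the 20% O2 library of day 10 (blue), with exact 95% counting intervals. The red points of 7 genes lie at -1.14 or below, and of the blue points only STC1 (0.85) and TMEM45A (-0.68) have intervals clear of 0.

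The order of levels over the 5 libraries was read for each gene with the interval between neighbouring ranks. For ANKRD37 and PPFIA4 the order was 1% O2 at day 10, 1% O2 at day 1, then 3 libraries that did not differ beyond counting error. TMEM45A had the same start, followed by both 20% O2 libraries without a difference and reoxygenated cells below them. STC1 had 1% O2 at day 10 on top, then 1% O2 at day 1 level with reoxygenated cells, then 20% O2 at day 10 above 20% O2 at day 1. In SPAG4 and ANKZF1 both 1% O2 libraries were at the top and could not be told apart. STC2 had 1% O2 at day 10 on top, and no pair of neighbours in the rest of its order could be told apart.

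As a measure of likeness over the 5 libraries, log2 CPM values were centred on each gene's own mean and the root mean square distance between genes was taken, among 11316 genes reaching 5 CPM in 1 or more libraries. Within the 8 genes the closest pair was ANKRD37 with TMEM45A, at a distance of 0.20, and the farthest was FAM162A with STC1, at 1.29. STC1 and STC2, relatives by sequence, lay 0.69 apart. The gene outside the set closest to ANKRD37 was ERRFI1, a feedback inhibitor of the EGF receptor, at 0.21, followed by RELN (0.22) and ACVR1C (0.26). For PPFIA4 it was DNAH11 (0.21), then PFKFB4 (0.26), a regulator of glycolysis, and RIMKLA (0.28). Among the genes near SPAG4 were NEBL (0.33) and PFKFB4 (0.34). TMEM45A was closest to MAP3K15 (0.26), ALDOC (0.29), a glycolytic aldolase, and RELN (0.29). ANKZF1 lay next to ZNF607 (0.12), the histone demethylase gene KDM3A (0.12) and MOB3A (0.17), and FAM162A next to PEG10 (0.10), ZNF654 (0.12) and the apoptosome gene APAF1 (0.12). STC1 was closest to LBH (0.15), the nuclear receptor gene RORA (0.22) and TCP11L2 (0.22), and STC2 to TLE2 (0.16), RAB3A (0.17) and SYNGR3 (0.18). In genes of few counts these distances also hold counting error.

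Whether the chromosomal neighbours of the 8 genes moved with them was not part of how the genes were chosen. Of 16 nearest measured neighbours, 1 on each side, none was higher or lower at day 1, with a median log2 difference of -0.08. At day 10, 2 were higher and 1 lower, with a median of 0.03, against 14.4% and 7.04% of all genes. LRP2BP, which overlaps ANKRD37 by 447 bases at their starts in RefSeq and runs on the other strand, had 42 counts at 1% O2 against 20 at 20% O2 after 1 day. After 10 days it had 239 counts at 1% O2 against 42 at 20% O2. Its log2 differences were 0.95 (0.21 to 1.86) and 2.67 (2.26 to 3.25), close in size to those of ANKRD37, and 31 counts remained in reoxygenated cells. The strand setting of the counting is not given in the sources used here, so reads of this pair cannot be told apart with certainty. Both rows summed differed by 1.15 (0.67 to 1.65) at day 1 and 2.87 (2.51 to 3.24) at day 10. In GENCODE 29 LRP2BP was not among the genes that overlap ANKRD37. UFSP2, on the other strand at the other end of ANKRD37, overlaps it by 1187 bases in RefSeq, with 0 shared exonic bases in GENCODE 29. It had more counts than ANKRD37 in every library but that of day 10 at 1% O2, and was at -0.10 (-0.33 to 0.13) and -0.50 (-0.79 to -0.24). ANKRD37 and UFSP2 summed differed by 0.08 (-0.13 to 0.29) at day 1 and 0.49 (0.27 to 0.71) at day 10, neither of which passed the 2-fold size.

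The noncoding row FER1L4, 8266 bases before SPAG4, had 24 counts at 1% O2 and 2 at 20% O2 after 10 days. CCDC58, 950 bases before FAM162A, was the neighbour that was lower at day 10, at -1.20 (-1.50 to -0.92), after 0.13 (-0.09 to 0.35) at day 1. ATG9A, which begins 169 bases from ANKZF1 and encodes a membrane protein of autophagy, was at 0.29 (0.14 to 0.44) and 0.14 (0.01 to 0.28). TMEM183A, 1642 bases from PPFIA4, was at -0.17 (-0.33 to -0.02) and -0.38 (-0.55 to -0.21). GLB1L overlaps the end of ANKZF1 by 82 bases and WDR5B that of FAM162A by 489 bases. Summed with its neighbour, ANKZF1 differed by 0.89 (0.72 to 1.06) at day 10, and FAM162A by 0.51 (0.32 to 0.71) and 0.14 (-0.06 to 0.35).

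**Figure D4:**
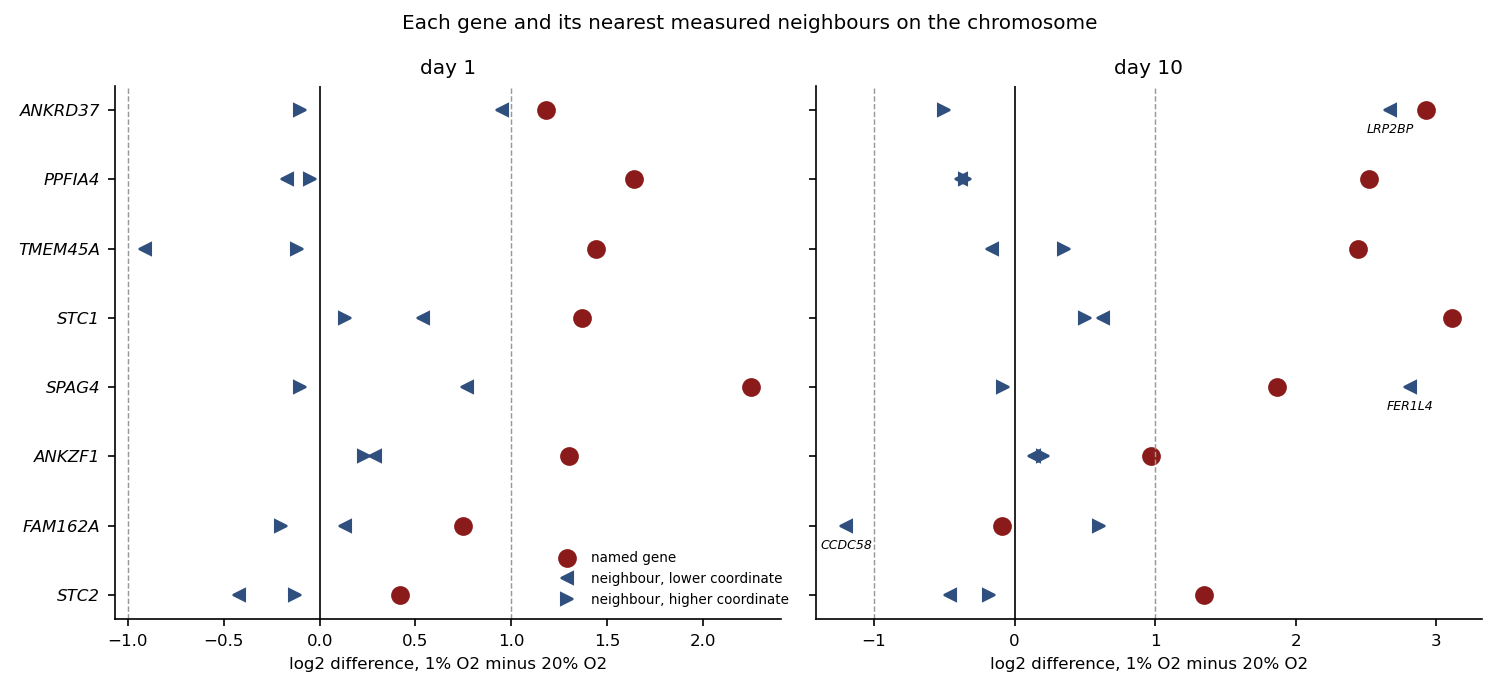
Log2 difference of 1% O2 minus 20% O2 for each of the 8 genes (red) and its nearest measured neighbour on either side (blue triangles) at day 1 and day 10. Named neighbours are those past the dashed 2-fold lines: LRP2BP (2.67), FER1L4 (2.81) and CCDC58 (-1.20) at day 10.

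Relatives and partners of the 8 genes, 87 measured genes in 7 lists, were compared in the same way. At day 1, 4 of the 87 were higher and none lower, with a median of 0.02, where 2.12% of all genes were higher and 0.839% lower. These 4 were BNIP3, BNIP3L, VLDLR and PAPPA2, the last from 5 counts at 1% O2 against 1 at 20% O2. At day 10, 18 were higher and 6 lower, with a median of 0.07, where 14.4% of all genes were higher and 7.04% lower. By comparison 33 better known HIF targets, BNIP3 and BNIP3L among them, had 17 higher at day 1 and 22 at day 10, with medians of 1.04 and 1.67. Both 1% O2 libraries were also set against both 20% O2 libraries in edgeR's quasi-likelihood test with the day as a further term, adjusted over 13011 genes. The 8 genes themselves were not read from that test, because they were chosen for the contrast it tests. In it 0.899% of all genes rose and 0.0999% fell. Of 85 tested relatives and partners 5 rose (BNIP3, BNIP3L, IGFBP3, GDF15 and VLDLR) and none fell. BNIP3 and BNIP3L are counted among the better known HIF targets as well, and VLDLR is a HIF target too. An unadjusted p under 0.05 was met by 1593 of the 13011 genes in either direction. Among the 85 relatives and partners 14 were higher and 5 lower at that level. DESeq2 called 3 that rose and limma-voom 5, and neither called one that fell. In edgeR the number that rose was 0 without the day term over all 4 libraries. With 1 library left out the day term was dropped too and 1 arm held a lone library, assumed to vary like the others, so the effect of the library and that of the term cannot be told apart. The number was then 0 without either 20% O2 library, 22 without the acute and 2 without the chronic 1% O2 library.

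No measured relative of PPFIA4, TMEM45A or SPAG4 in these lists passed the 2-fold size at day 1, and a few did at day 10. Of 5 other liprins, PPFIA1, the broadly expressed liprin-α1, stood at a log2 difference of 0.14 (0.03 to 0.26) on day 1 and of -0.14 (-0.24 to -0.03) on day 10. PPFIA3 had 137 counts at 1% O2 against 56 at 20% O2 on day 10, which is a log2 difference of 1.48 (1.06 to 2.00), after -0.27 (-1.16 to 0.57) on day 1. PPFIA2 was lower on day 10 from few counts, 1 at 1% O2 and 15 at 20% O2. TMEM45B, the relative of TMEM45A, had 4 counts in each library of day 1. On day 10 there were 73 counts at 1% O2 against 8 at 20% O2, which is a log2 difference of 3.09 (2.37 to 4.69), and reoxygenated cells had 6. It was the 1 gene past the 2-fold size among 20 in its list, whose ankyrin repeat genes otherwise stayed within it.

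Among 12 measured SUN, nesprin, lamin and related nuclear envelope genes, none passed the size at day 1. At day 10 SUN2 was higher by 1.32 (1.17 to 1.49), SUN3 by 1.09 (0.47 to 1.87) and the nesprin gene SYNE1 by 1.50 (1.32 to 1.70). LMNB1, which encodes lamin B1, was lower by -1.66 (-1.78 to -1.54). None of the 12 was called in edgeR's test, by DESeq2 or by limma-voom. At an unadjusted p under 0.05 in edgeR 3 were higher and 1 lower, where 1593 of 13011 genes passed in either direction. SYNE1 had an adjusted p of 0.15 in edgeR's test and LMNB1 of 0.26. SUN2 was at 0.06 (-0.13 to 0.26) on day 1, when SPAG4 was at 2.25.

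ANKZF1 works with VCP, the ATPase that extracts proteins, and its partners on stalled ribosomes. Of 13 genes of that machinery none passed the size at day 1, with a median of -0.05. On day 10 none was higher and 2 were lower, against 14.4% and 7.04% of all genes. These were VCP at -1.08 (-1.14 to -1.02) and its cofactor UFD1L at -1.04 (-1.24 to -0.85), and none passed the size with library totals. None of the 13 was called in edgeR's test, by DESeq2 or by limma-voom, nor had an unadjusted p under 0.05 in edgeR. ANKZF1 itself was at 0.97 on day 10. For FAM162A, 9 genes of mitochondrial membrane proteins were measured, with medians of -0.07 at day 1 and -0.26 at day 10 and 3 of the 9 above 0 at each time. The mitophagy receptor genes BNIP3 and BNIP3L were higher at day 1, at 1.60 (1.50 to 1.71) and 1.22 (1.11 to 1.34), and rose in edgeR's test with adjusted p of 0.0249 and 0.00353; BNIP3 was not called with robust weighting (adjusted p = 0.0546). HIGD1A, a small inner membrane protein gene of hypoxia, was at -0.37 (-0.47 to -0.26) on day 1 and just short of the 2-fold size on day 10, with an interval of -1.12 to -0.88. The channel gene VDAC1 was at -0.74 (-0.80 to -0.68), VDAC3 at -0.63 (-0.75 to -0.51) and the cell death gene BAX at -0.74 (-0.96 to -0.52) on day 10, and none of these was called in edgeR's test. BNIP3 was, like FAM162A, at a lower difference on day 10, 0.78 (0.68 to 0.89), while BNIP3L was at 1.67 (1.58 to 1.77).

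The stanniocalcins act outside the cell, where they block pappalysins, proteases that release insulin-like growth factors (IGF) from their binding proteins. All 10 measured genes of this axis were above 0 at both times, with medians of 0.32 and 0.80, where those of all genes were 0.00 and 0.02. Not all of these values differ from 0 beyond counting error. The intervals of IGF2 and PAPPA included 0 at both times, and that of IGFBP6 did at day 1. The 2-fold size was passed by 1 at day 1, where 2.12% of all genes were higher, and by 5 at day 10, where 14.4% were. The 1 at day 1 was PAPPA2, from 5 counts at 1% O2 against 1 at 20% O2, with an interval of -0.89 to 7.83. IGFBP3, an IGF binding protein, had 443 counts at 1% O2 and 263 at 20% O2 on day 1, and 1889 at 1% O2 and 247 at 20% O2 on day 10, with 94 in reoxygenated cells. It rose in edgeR's test (adjusted p = 0.0048) but was not called by DESeq2 (adjusted p = 0.815) or with robust weighting in edgeR (adjusted p = 0.556). The receptor gene IGF1R was at 0.41 (0.31 to 0.51) and 1.37 (1.29 to 1.45), IGFBP6 at 0.25 (-0.15 to 0.68) and 1.09 (0.78 to 1.43), and neither was called (adjusted p = 0.165 and 0.439 in edgeR's test). The protease gene PAPPA2 had 63 counts at 1% O2 and 9 at 20% O2 on day 10, whereas PAPPA had 56 at 1% O2 and 50 at 20% O2.

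STC2 is known to respond to the integrated stress response. In that list of 18 genes 1 was higher at day 1, where 2.12% of all genes were. At day 10 there were 7 higher and 2 lower (1 lower with library totals), with a median of 0.63, where 14.4% of all genes were higher and 7.04% lower. GDF15, a stress cytokine, was at 0.48 (0.10 to 0.87) and 2.39 (2.12 to 2.72), and VLDLR at 1.26 (1.01 to 1.54) and 1.49 (1.28 to 1.72). Both rose in edgeR's test with adjusted p of 0.0498 and 0.00869. GDF15 was not called by DESeq2 (adjusted p = 0.29), nor in edgeR with DESeq2 size factors (adjusted p = 0.0988) or robust weighting (adjusted p = 0.189). CEBPB was at 0.37 and 1.55 (1.44 to 1.67) with an adjusted p of 0.117, and ATF5 at 0.11 and -1.91 (-2.28 to -1.60) with an adjusted p of 0.313 in that edgeR test. ATF4 itself was at -0.18 (-0.25 to -0.10) and 0.83 (0.75 to 0.92), with an adjusted p of 0.68 in the same test. From day 1 to day 10 at 20% O2 ATF4 differed by -0.86 (-0.95 to -0.78), where STC2 differed by 1.50. Whether ATF4 bears on STC2 here was not tested. VLDLR is also a HIF target, so the list does not hold stress genes alone.

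**Figure D5:**
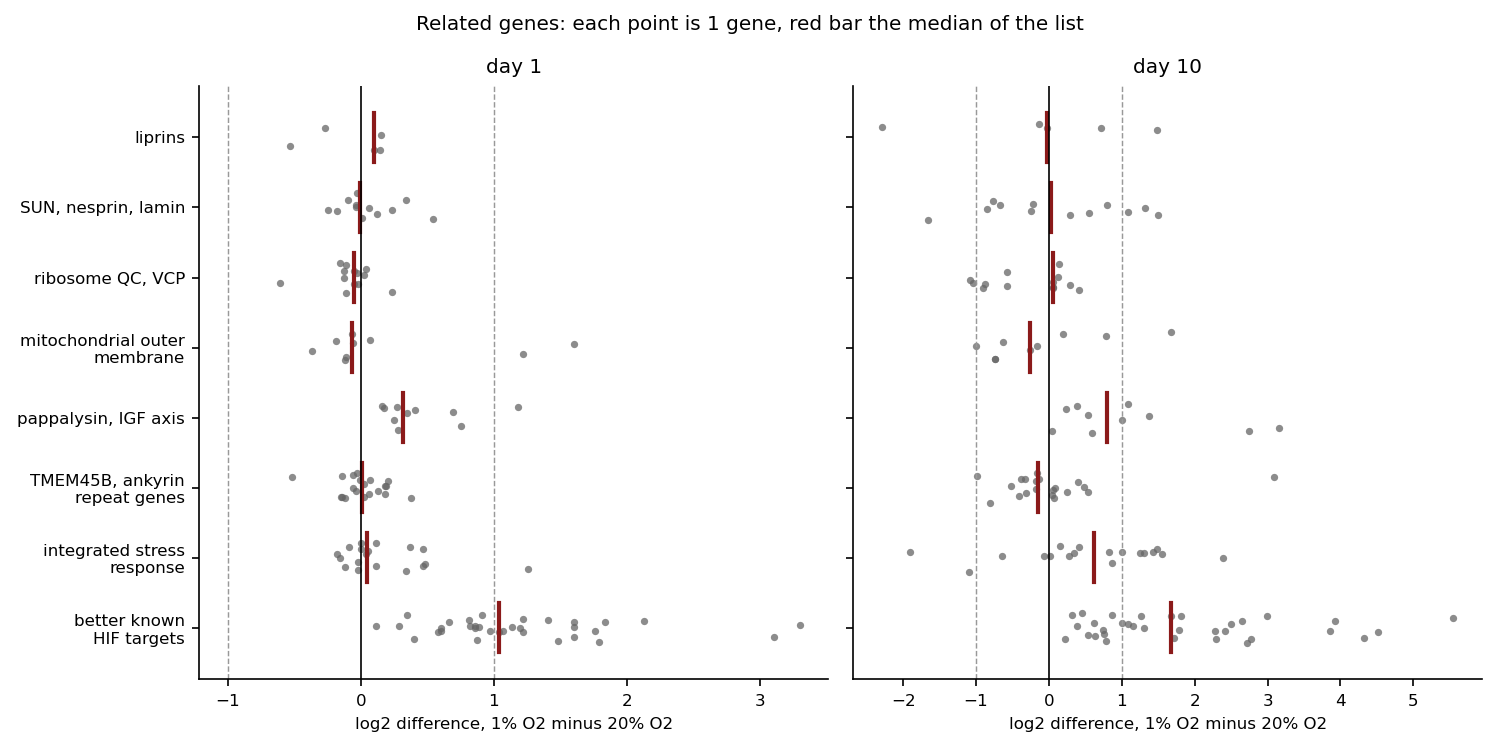
Log2 difference of 1% O2 minus 20% O2 for each measured gene of 8 lists at day 1 and day 10, with the list median as a red bar and dashed lines at the 2-fold size. The better known HIF targets have medians of 1.04 and 1.67, and the lists of relatives and partners lie around 0 at day 1, with medians of -0.07 to 0.32.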

How the data were processed

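RNA of MDA-MB-231 cells was sequenced as 5 libraries, 1 per condition. The submitters' processing notes name hg38, edgeR, RSEM 1.2.15 and Bowtie2 2.1.0. Which annotation and strand setting they used is not given in the sources used here. The authors deposited expected counts per gene symbol, not normalized, of which 3.577% to 4.087% per library were not whole. They also deposited a normalized signal, which its name and values show to be CPM after TMM scaling. All of those (100%, within 0.01 of a whole number) were whole multiples of 1 read, and the recovered reads equalled the rounded counts in at least 99.928% of rows. edgeR's test on the recovered reads, added after the data were seen, called 117 that rose and 13 that fell, as many as on the rounded counts.

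Expected counts were rounded, genes reaching 1 CPM in 1 or more libraries kept, and TMM factors (0.9648 to 1.067) and log2 CPM with a prior count of 2 computed (edgeR 4.0.16, R 4.3.3). 1 read corresponds to 0.08156 to 0.1257 CPM. Level intervals are exact Poisson and difference intervals exact Clopper-Pearson at 95%; reads carry no molecular identifiers, so both cover counting error only. The oxygen term used 4 libraries, oxygen and day, genes reaching 1 CPM in 2 or more of them and Benjamini-Hochberg adjustment at 0.05. It had 1 residual and 29.8 prior degrees of freedom. With 1 library per condition, that residual is the change of the oxygen difference between days. The p-values set each difference against such change, pooled over genes, and not against spread between replicates. A gene whose difference changes with time can thus fail to be called. Nothing says that these libraries are separate cultures. DESeq2 1.42.0 and limma 3.58.1 were alternatives. The intervals and that test were checked on simulated data. In the simulation of the test each changed gene had the same fold at both days. That check therefore does not cover differences that change with time.

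The members and lists were chosen with earlier results of these data known. Named relatives were those past the size rule with at least 5 CPM, at most 4 per list, and those called by the test; others named were chosen after their values were seen. Likeness used the 3 nearest genes, without noncoding and joined symbols; 1 of them is not reported here. Coordinates are RefSeq's (GRCh38.p14).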

Additional observations from a re-analysis of the deposited data

Results flagged for a closer look

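Several of the 8 genes and of the relatives and neighbours named above had opposite signs at day 1 and day 10 in the difference between 1% and 20% O2. With 1 library per condition this difference between times was not tested. FAM162A was at 0.75 on day 1 and -0.09 on day 10. PPFIA3 was at -0.27 and 1.48, TMEM45B at -0.04 and 3.09, and ATF5 at 0.11 and -1.91. CCDC58, next to FAM162A, was at 0.13 and -1.20, and PPFIA1 at 0.14 and -0.14. BAX was at 0.07 and -0.74, and WDR5B, which overlaps FAM162A, at -0.20 and 0.60. ATF4 was at -0.18 and 0.83. For PPFIA1 and ATF4 both counting intervals leave out 0, and for the others the interval of the value nearer 0 includes it. FAM162A had the same sign on both days with library totals, at 0.04 on day 10.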

How the results depend on the processing

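Each of the 48 log2 differences of the 8 genes was recomputed under 5 alternatives (library totals, DESeq2 size factors, a prior count of 0.5, the deposited normalized table as log2(value + 1), and no filter). Of the 240 values, 238 stayed within the counting interval of the reported value and none turned the sign of a difference whose interval excluded 0. The 2 exceptions were STC1 with library totals, at 3.23 at day 10 between oxygen levels and 2.36 between days at 1% O2. With library totals 5 in place of 3 of the 8 genes had a day 10 minus day 1 change of at least 1, for which no share of all genes is given. Under the same setting 3 in place of 6 relatives and partners were lower at day 10. Among single lists, ribosome quality control genes lower at day 10 then numbered 0 in place of 2 and stress response genes 1 in place of 2, and a filter of 5 CPM left 0 liprins lower in place of 1. The other counts past the size rule stayed within 1.5 times.

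The oxygen test depended on its settings far more. In place of 117 genes that rose and 13 that fell, DESeq2 gave 47 and 2, limma-voom 202 and 22, edgeR without the day term 0 and 0 (462 genes at an unadjusted p under 0.05), with DESeq2 size factors 75 and 6, with no filter 237 and 44, and with robust weighting, added after the data were seen, 51 and 6. Among relatives and partners 5 rose in the main setting, 3 with DESeq2, 0 without the day term and 2 with robust weighting. Leaving out 1 library, which also dropped the day term, gave 0 to 2028 genes that rose and 0 to 2197 that fell, and 0 to 22 and 0 to 17 among relatives and partners; the high values came without 1% O2 at day 1. The cause was not tested. No paired analysis was possible because each condition has 1 library and the groups share no more than 1 replicate number; the day term of the oxygen test does set 1% against 20% O2 within each day. Depth limits STC2 and SPAG4 most, with 11 counts each at 20% O2 on day 1.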

Other observations

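Genes of the integrated stress response, described above for hypoxia, were also compared after reoxygenation. In reoxygenated cells 4 of the 18 were higher than after 10 days at 20% O2 and none lower, where 3.4% and 1.41% of all genes were. These were DDIT3 (CHOP), with 196 counts in reoxygenated cells and 118 at 20% O2, GDF15 with 294 and 114, the cystine transporter gene SLC7A11 with 2100 and 1558, and HERPUD1, a gene of endoplasmic reticulum stress, with 575 and 377. They were named after their values were seen. Their log2 differences were 1.34, 1.97, 1.05 and 1.23, in that order. STC2 was at -0.45 (-1.35 to 0.33) in the same comparison. DDIT3 had differed by 0.02 between 1% and 20% O2 on day 10, SLC7A11 by -1.10, GDF15 by 2.39 and HERPUD1 by 1.30. From 1% O2 at day 10, reoxygenated cells differed by 1.32 for DDIT3 and 2.16 for SLC7A11. The same difference was -0.42 (-0.64 to -0.22) for GDF15 and -0.07 (-0.23 to 0.08) for HERPUD1. Reoxygenated cells had also been in culture for longer than both libraries they were set against.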
